A study of Mesocentrotus franciscanus with 18 samples.

Results

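Lkb1 (SPU_022284) and MAP3K9 (SPU_018191) are 2 protein kinase genes of the red sea urchin Mesocentrotus franciscanus, 2 of the 127198 gene groupings of a Trinity assembly whose reads were counted in 18 RNA-Seq libraries. The count table carries Trinity identifiers only, so each gene was chosen by its counts in the radial nerve libraries of 2010 and by its sums over the muscle libraries. Lkb1 was the grouping TRINITY_DN17117_c0_g1, with 304 reads in RN-L and 50 in RN-S of 2010, and with 711 reads summed over ALM-L and 591 over ALM-S. MAP3K9 was TRINITY_DN23456_c0_g1, with 144 reads in RN-L and 43 in RN-S of 2010, and with 93 reads summed over ALM-L and 79 over ALM-S. These counts chose the members, so every value in RN of 2010 and in ALM is given as a description with no test. Exactly 1 row matched for each gene. For MAP3K9, 1 pair of other rows also summed to the same 4 values, and the mean count printed by the study pointed to the single row for both genes.

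The study compared Large and Small animals, taken as old and young, in 3 tissues: the radial nerve cord (RN), the esophagus (ES), and, abbreviated ALM, muscle taken from the jaw apparatus known as Aristotle's lantern. The 6 groups were RN-L, RN-S, ES-L, ES-S, ALM-L and ALM-S. Each group held 3 libraries, 1 for each of the collections of 2010, 2011 and 2013, and each library was made from a pool of RNA from several wild animals, so that differences between single animals are not seen. All animals were untreated, and size stands in for age. The library titles give the years, whereas another label field gives 2010 for all 6 RN libraries; the titles were followed. The 3 RN-L libraries were named as a series of their own, which holds no RN-S library, so library series and size cannot be told apart in RN.

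LKB1, also known as serine/threonine kinase 11, is the kinase that in mammals phosphorylates and activates AMPK, the sensor of low cellular energy, and the AMPK-related kinases, through which it restrains mTOR signaling and takes part in neuronal polarity. MAP3K9 is a mixed lineage kinase, a MAP kinase kinase kinase that in mammals feeds the JNK cascade, which is known in neurons for its part in stress responses and axon injury. Gene names here are those of the homologs in the purple sea urchin S. purpuratus.

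The study measured both genes by qRT-PCR with the primer pairs below, which are shown because they are the only M. franciscanus sequence of these genes used here. They are written 5′ to 3′ in lower case, and no base is singled out. Those for Lkb1 hold 21 and 19 bases with a GC content of 52.4% and 57.9%, and those for MAP3K9 hold 17 and 23 bases with 64.7% and 52.2%.
Lkb1 forward: gaatacctgcacagccagcat
Lkb1 reverse: ccggcggtggtaagaagaa
MAP3K9 forward: atgcggccctgctgaag
MAP3K9 reverse: aggttgagttccctctccaagag

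Libraries held 7383210 to 11547218 counts, with a median of 9674060. Levels below are counts per 1000000 counts of a library (CPM), scaled by TMM, a normalization that sets the bulk of genes equal between libraries. ES-L of 2010 stood apart from the other ES-L libraries, with a Pearson r of log2 CPM of 0.81 and 0.80 to them, against 0.91 between those of 2011 and 2013. Test results of the 2 genes that rest on ES-L are given with and without it, and those of the list genes are not. In pooled tissue, fewer cells of a type and less RNA per cell cannot be told apart. CPM is not scaled by transcript length, so the levels of the 2 genes are not compared with each other.

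MAP3K9 was high in 1 group only, RN-L, and low in the other 5, whereas Lkb1 was spread over a range of levels with RN-L at the top and RN-S at the bottom. MAP3K9 was at 14.8, 36.5 and 34.2 CPM in RN-L of 2010, 2011 and 2013, against 4.16, 3.09 and 4.37 CPM in RN-S. In ES it was at 7.89, 3.28 and 3.30 CPM in ES-L, against 4.11, 5.17 and 5.53 CPM in ES-S. In ALM it was at 4.65, 3.60 and 1.97 CPM in ALM-L, against 3.51, 3.37 and 4.43 CPM in ALM-S. Every RN-L library lay above all 15 others, and outside RN-L no library passed the 7.89 CPM of ES-L of 2010. The share of groupings with this arrangement was not counted. Of groupings with a mean of at least 1 CPM, RN-L lay wholly above RN-S in 18.6% and above ES-L in 20.9%. The RN counts of 2010 and the ALM sums also took part in the choice of the gene.

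Lkb1 was at 31.3, 19.3 and 52.1 CPM in RN-L of 2010, 2011 and 2013, against 4.83, 4.97 and 9.72 CPM in RN-S. In ES it was at 12.1, 14.4 and 18.6 CPM in ES-L, against 10.4, 18.0 and 11.8 CPM in ES-S. In ALM it was at 38.2, 21.9 and 15.8 CPM in ALM-L, against 24.8, 25.5 and 33.7 CPM in ALM-S. Sizes did not overlap in RN for either gene, as for 18.6% of groupings with a mean of at least 1 CPM that were higher in RN-L, a split that took part in the choice of the genes. They overlapped in ES and ALM. For Lkb1 the RN-L libraries of 2010 and 2011 lay within the ALM range of 15.8 to 38.2 CPM, and that of 2013, at 52.1 CPM, above it. The 3 RN-L libraries differed by 2.70 times between the lowest and the highest for Lkb1 and by 2.46 times for MAP3K9, and not in the same order: the lowest was 2011 for Lkb1 and 2010 for MAP3K9.

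**Figure D1:**
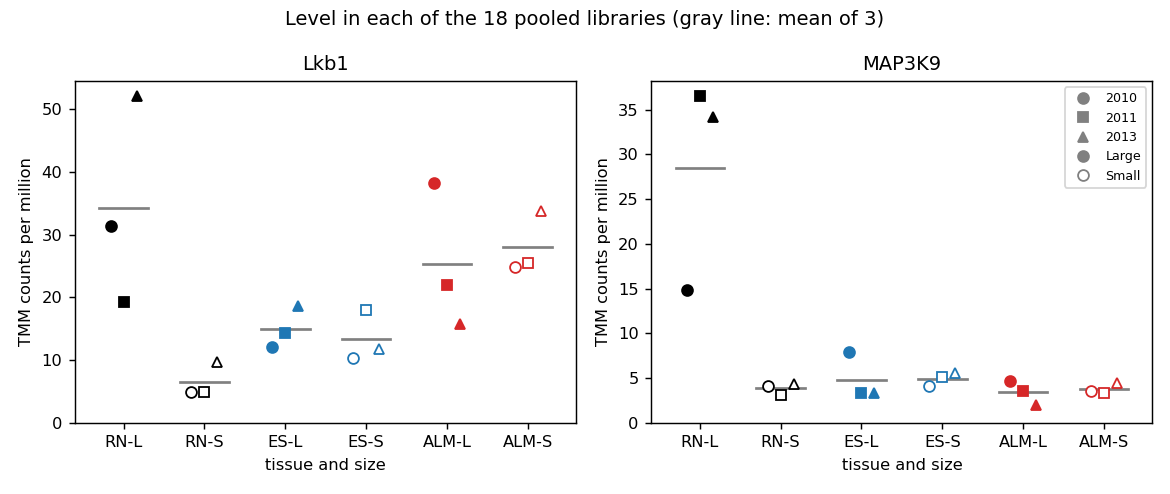
TMM-scaled CPM (y axis) of Lkb1 (left) and MAP3K9 (right) in each library, by tissue and size (x axis). Filled symbols are Large and open symbols Small, the shape gives the year and the gray line is the mean of 3 libraries. MAP3K9 stands at 14.8 to 36.5 CPM in RN-L and at 1.97 to 7.89 CPM in the other 5 groups, while Lkb1 in RN-L (19.3 to 52.1 CPM) overlaps with ALM.

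Ordered by mean level, MAP3K9 was at 28.5 ± 11.9 CPM in RN-L, then 4.94 ± 0.739 in ES-S, 4.82 ± 2.65 in ES-L, 3.87 ± 0.687 in RN-S, 3.77 ± 0.575 in ALM-S and last ALM-L at 3.41 ± 1.35 (SD, n = 3 each). The step from RN-L to ES-S was the only one between neighbours whose libraries did not overlap. For Lkb1 the order was RN-L at 34.2 ± 16.6 CPM, ALM-S at 28.0 ± 4.94, ALM-L at 25.3 ± 11.6, ES-L at 15.0 ± 3.32, ES-S at 13.4 ± 4.05 and RN-S at 6.51 ± 2.78 (SD, n = 3 each). There the libraries of neighbours overlapped at every step but the last, from ES-S to RN-S. The rank of RN-L at the top of both genes and of RN-S at the bottom of Lkb1 held with RLE scaling and with the total count alone, both chosen after seeing the data. With the total count alone, ALM-S was 4th for Lkb1, at 18.3 CPM, below ES-L at 19.4 CPM, so the order of ALM and ES depends on the scaling.

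The ratio of the 2 genes within a library needs no scaling. Lkb1 gave 6.09 to 8.22 reads per MAP3K9 read in ALM-L, against 7.06 to 7.61 in ALM-S. In ES the ratio was 1.53 to 5.64 in ES-L, against 2.14 to 3.48 in ES-S. In RN it was 0.528 to 2.11 in RN-L, against 1.16 to 2.23 in RN-S. The ratio differed by tissue without overlap between ALM and the other tissues, and the sizes overlapped in each tissue.

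**Figure D2:**
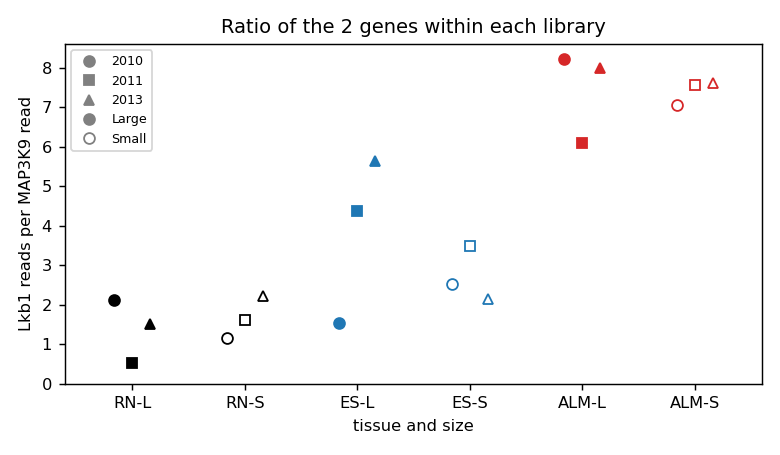
Lkb1 reads per MAP3K9 read (y axis) in each library, by tissue and size (x axis). Filled symbols are Large, open symbols Small, and the shape gives the year. The 6 ALM libraries lie at 6.09 to 8.22, above all ES and RN libraries, and the 6 RN libraries lie at 0.528 to 2.23.

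The effect of size in RN was taken from the libraries of 2011 and 2013, since those of 2010 chose the members. MAP3K9 rose in RN-L relative to RN-S, with a log2 fold-change of 3.17 (SE 0.36, 95% interval 2.31 to 4.02, adjusted p = 0.0117). The gene was 11.8 times as high in Large in 2011 and 7.83 times as high in 2013. Lkb1 missed the threshold, with a log2 fold-change of 2.21 (SE 0.59, 95% interval 0.81 to 3.60, adjusted p = 0.0552), and was 3.87 times as high in Large in 2011 and 5.36 times as high in 2013. The p-values are from the quasi-likelihood test of edgeR with Benjamini-Hochberg adjustment over all groupings tested, and a grouping was called at an adjusted p under 0.05 with a log2 fold-change beyond 1 in size. By that rule 1 of the 2 genes was called, and 12.5% of all groupings tested were called, 7.07% as higher in RN-L.

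The study listed both genes for their difference over all 6 RN libraries, so the test on 4 of them is not independent of that choice. The Lkb1 call turned on the setting: DESeq2 gave an adjusted p of 0.00304, and edgeR gave 0.0307 with sampling year as a replicate block and 0.0327 in a fit to 16 libraries. The MAP3K9 call was lost when RN-L of 2011 was left out (log2 fold-change 3.15, adjusted p = 0.168) or RN-L of 2013 (3.27, adjusted p = 0.169), each of which left RN-L with 1 library, taken to vary like the others. In those fits edgeR called no grouping at all, 0 of 37976 without RN-L of 2011 (5537 at an unadjusted p under 0.05) and 0 of 36108 without RN-L of 2013 (5407). Over all 3 years the log2 fold-change, given with no test, was 2.31 (SE 0.47) for Lkb1 and 2.79 (SE 0.40) for MAP3K9. In 2010 Lkb1 was 6.48 times and MAP3K9 3.57 times as high in RN-L, so MAP3K9 had its smallest ratio and Lkb1 its largest in the same year.

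Markers of nerve, muscle and skeleton-forming cells moved with size in the same RN libraries. The 10 nerve markers, among them neurexin (Neurx) and syntaxin (Stx1), summed to 844 to 1026 CPM in RN-L, against 149 to 167 CPM in RN-S. The 6 muscle markers that could be linked of 8, among them tropomyosin (Tropmy1) and troponins (Trop1, TropT), summed to 820 to 1479 CPM in RN-L, against 11704 to 35353 CPM in RN-S, and to 40864 to 65628 CPM in ALM-S. Most of the RN-S sums came from 1 marker, Calpn, at 25979, 11223 and 6035 CPM in 2010, 2011 and 2013. Calpn averaged 14412 CPM in RN-S, above its 9236 CPM in ALM-S. The other linked muscle markers were lower in RN-S than in ALM-S, with Tropmy1 at 4720 against 32517 CPM on average. The 8 markers of skeleton-forming cells, among them the spicule matrix genes Sm29 and Sm37, summed to 3.30 to 22.5 CPM in RN-L, against 94.2 to 286 CPM in RN-S. No marker of the 3 lists was at 0 in all 3 libraries of RN-L or of RN-S. In the test on 2011 and 2013, 10 of 10 nerve markers were called as higher in RN-L, and 6 of 6 muscle markers and 6 of 7 skeleton markers tested as lower. The lists come from the study's own tables of genes that differed by size in RN, so their direction was fixed by that choice. The part of this shift in the RN values of Lkb1 and MAP3K9 was not tested.

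**Figure D3:**
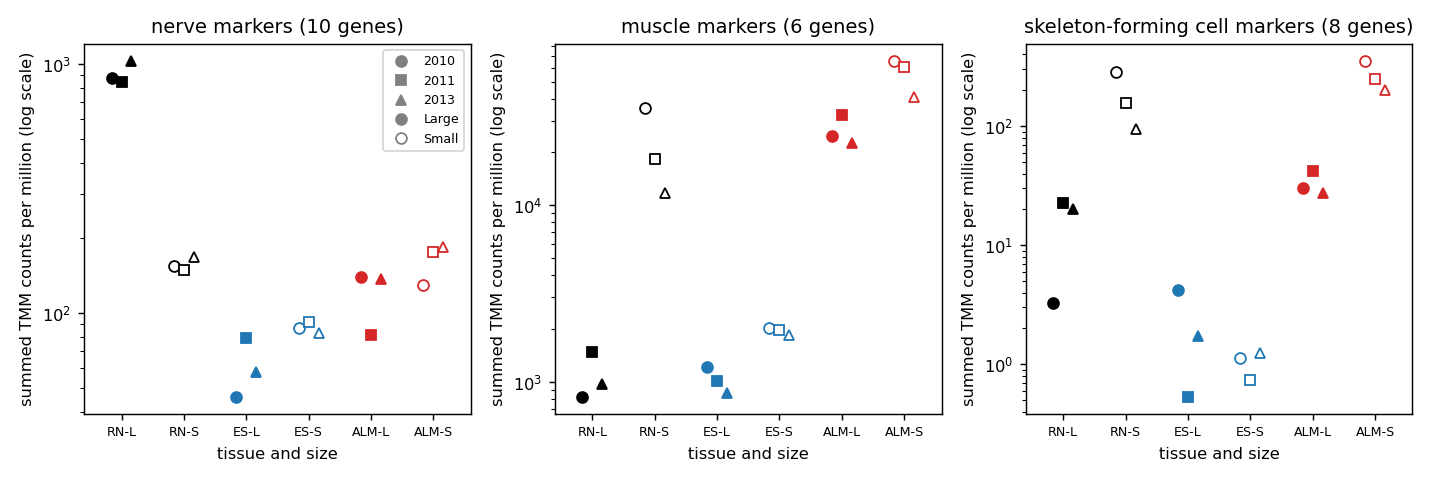
Summed TMM-scaled CPM (y axis, log scale) of 10 nerve, 6 muscle and 8 skeleton-forming cell markers in each library, by tissue and size (x axis). Filled symbols are Large, open symbols Small, and the shape gives the year. Nerve markers are at 844 to 1026 CPM in RN-L and 149 to 167 CPM in RN-S, while muscle markers are at 820 to 1479 CPM in RN-L and 11704 to 35353 CPM in RN-S.

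In the muscle itself, MAP3K9 was at 1.97 to 4.65 CPM over the 6 ALM libraries and Lkb1 at 15.8 to 38.2 CPM. The ALM range of MAP3K9 held all 3 RN-S values, at 3.09 to 4.37 CPM. Lkb1 was lower in RN-S, at 4.83 to 9.72 CPM, than in any ALM library. No list of markers was at hand for the esophagus.

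In ES neither gene was called by size. The log2 fold-change of ES-L over ES-S was 0.26 for Lkb1 (SE 0.37, 95% interval -0.58 to 1.10, edgeR adjusted p = 0.939) and 0.024 for MAP3K9 (SE 0.46, 95% interval -1.02 to 1.07, edgeR adjusted p = 0.996). Neither gene had an unadjusted p under 0.05, at 0.494 for Lkb1 and 0.960 for MAP3K9, and neither was called by DESeq2. In all, 0.00331% of the groupings tested were called in ES, which was 1 grouping. Lkb1 was 1.16 times as high in Large in 2010, 0.798 times in 2011 and 1.57 times in 2013, and MAP3K9 1.92, 0.635 and 0.597 times, so neither kept a direction over the years. Without ES-L of 2010 the log2 fold-change was 0.39 for Lkb1 and -0.50 for MAP3K9 (edgeR adjusted p = 0.543 and 0.425), and 892 groupings were called in place of 1. The sign of the MAP3K9 value thus turned with that library, and the intervals exclude changes of the size seen for MAP3K9 in RN. Muscle markers were at 862 to 1215 CPM in ES-L, against 1840 to 2005 CPM in ES-S, and nerve markers at 45.9 to 79.0 CPM in ES-L, against 83.1 to 91.5 CPM in ES-S. Their part in the ES values was not tested.

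In ALM, given with no test, the log2 fold-change of ALM-L over ALM-S was -0.14 (SE 0.41) for Lkb1 and -0.15 (SE 0.49) for MAP3K9. Scaled by the total count alone the values were 0.20 and 0.16, so their sign rests on the scaling, which moved the median of all groupings to 0.35. The sign also rests on single libraries: without ALM-L of 2013 the values were 0.13 for Lkb1 and 0.16 for MAP3K9, without ALM-S of 2013 they were 0.029 and 0.0010, and without ALM-L of 2010 they were -0.60 and -0.48. By year, Lkb1 was 1.54, 0.861 and 0.468 times as high in ALM-L as in ALM-S, and MAP3K9 1.32, 1.07 and 0.445 times. Both genes had their highest ALM-L value in 2010 and their lowest in 2013. Muscle markers stood at 22396 to 32265 CPM in ALM-L, against 40864 to 65628 CPM in ALM-S, and skeleton markers at 27.5 to 42.4 CPM in ALM-L, against 202 to 354 CPM in ALM-S. Nerve markers stood at 81.1 to 139 CPM in ALM-L, against 129 to 184 CPM in ALM-S, with Th and Gad at 0 in all ALM-L libraries and Syt12 in all ALM-S libraries. Most of the ALM sums came from AchE_2, at 72.9 CPM in ALM-L and 94.6 CPM in ALM-S on average, and Pclo, at 26.0 CPM in ALM-L and 42.3 CPM in ALM-S. In RN-S these 2 genes averaged 68.7 and 8.51 CPM. The part of these differences in the values of the 2 genes was not tested.

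Whether the effect of size differed between RN and ES was tested as the difference of the 2 effects, in a fit to 16 libraries that left out RN of 2010. For MAP3K9 the effect in RN exceeded that in ES by 3.29 on the log2 scale (SE 0.65, 95% interval 1.90 to 4.68, edgeR adjusted p = 0.0216). For Lkb1 the difference was 2.10 (SE 0.69, 95% interval 0.64 to 3.57, edgeR adjusted p = 0.147), short of the threshold, and DESeq2 put it past the threshold at 0.0335. Without ES-L of 2010 the Lkb1 difference was 1.97 (edgeR adjusted p = 0.185). Without RN-L of 2013 the Lkb1 difference was 1.20, and without RN-L of 2011 it was 2.63, with no call in either edgeR fit. One gene was therefore called, where 1.43% of all groupings tested were called, 0.558% in that direction. The MAP3K9 call was lost without 1 of 7 libraries: RN-L of 2011 (log2 difference 3.23), RN-L of 2013 (3.32), RN-S of 2011 (3.03), RN-S of 2013 (3.51), ES-L of 2013 (3.08), ES-S of 2011 (3.26) or ES-S of 2013 (3.20). The adjusted p was then 0.0505 to 0.117, and without ES-L of 2010 it was 0.00365 at a difference of 3.81. No ALM level entered this difference, because ALM sums chose the members. The ALM libraries were in the fit, though, and shared in its filter, scaling and estimate of spread. The same holds for the tests between RN and ES below. The study's choice of both genes on their RN size effect favoured a positive difference. It also favoured high RN-L values in the tests between tissues.

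**Figure D4:**
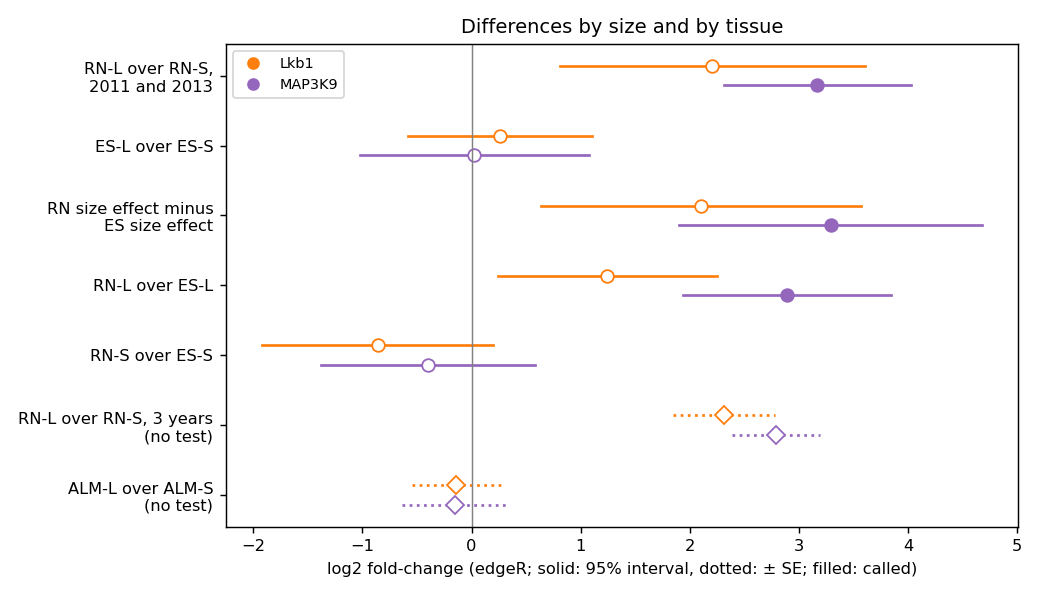
Log2 fold-changes (x axis) of Lkb1 and MAP3K9 for each comparison (y axis), from edgeR. Solid lines are 95% intervals, dotted lines with diamonds are values ± SE with no test, and filled symbols are called. MAP3K9 is called in RN-L over RN-S (3.17), in the difference of the size effects (3.29) and in RN-L over ES-L (2.89), while Lkb1 is called in none of the 5 tests.

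Between tissues, MAP3K9 was higher in RN than in ES among Large animals and not called among Small ones. In Large animals RN exceeded ES by 2.89 on the log2 scale for MAP3K9 (SE 0.45, 95% interval 1.94 to 3.84, edgeR adjusted p = 0.000294) and by 1.24 for Lkb1 (SE 0.47, 95% interval 0.24 to 2.25, edgeR adjusted p = 0.0622). Without ES-L of 2010 the values were 3.41 for MAP3K9 (edgeR adjusted p = 7.56e-05) and 1.11 for Lkb1 (0.141). MAP3K9 was one of the 26.7% of groupings called, 10.7% being higher in RN, and kept its call without each of the 16 libraries in turn. Lkb1 was called by DESeq2, at an adjusted p of 0.0343, and by edgeR without RN-L of 2011 (log2 fold-change 1.78, adjusted p = 0.0419) or without ALM-L of 2010 (1.24, adjusted p = 0.0466). Without RN-L of 2013 its log2 fold-change was 0.34. Leaving out RN-L of 2011 or 2013 left 1 RN-L library in these fits, taken to vary like the other groups. The named series of the RN-L libraries holds no ES library, so library series and tissue cannot be told apart in Large animals. In the 3 years together, all RN-L libraries lay above all ES-L libraries for both genes, as for 20.9% of groupings with a mean of at least 1 CPM. Nerve markers were at 844 to 1026 CPM in RN-L, against 45.9 to 79.0 CPM in ES-L, and muscle markers at 820 to 1479 CPM, against 862 to 1215 CPM. Their part in the values was not tested.

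In Small animals the log2 fold-change of RN over ES was -0.86 for Lkb1 (SE 0.50, 95% interval -1.92 to 0.20, edgeR adjusted p = 0.272) and -0.40 for MAP3K9 (SE 0.46, 95% interval -1.38 to 0.58, edgeR adjusted p = 0.631). Neither was called by edgeR or DESeq2 or had an unadjusted p under 0.05, at 0.104 for Lkb1 and 0.400 for MAP3K9, where 18.5% of groupings were called. Over the 3 years the RN-S libraries lay below the ES-S libraries for Lkb1, as for 24.8% of groupings, and overlapped with them for MAP3K9. The RN-S library of 2013 carries a name of the same series as the ES libraries. It held 9.72 CPM of Lkb1, below the 10.4 to 18.0 CPM of ES-S, and 4.37 CPM of MAP3K9, within the 4.11 to 5.53 CPM of ES-S. Muscle markers were at 11704 to 35353 CPM in RN-S, against 1840 to 2005 CPM in ES-S, and nerve markers at 149 to 167 CPM, against 83.1 to 91.5 CPM. The part of these differences in the values of the 2 kinases was not tested.

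The pathway around LKB1 was followed through a list of 15 genes, of which 10 could be linked to 1 grouping: the autophagy genes Rb1cc, Atg14 and Atg4hb, the AKT-opposing lipid phosphatase PtenB, the mTORC2 subunit Mip1 (Sin1), the lysosomal amino acid sensor Slc38a9, the carnitine palmitoyltransferases CPT1A and CPT1C, fatty acid synthase (FASN) and the cap-binding protein Eif4e3. Prkag2, a regulatory subunit of AMPK, MARK3, an AMPK-related kinase, Ulk1, the kinase that starts autophagy, Inpp5f and PPP2R1A could not be linked. The study listed these genes for their difference by size in RN, so their direction there was fixed by that choice. In RN of 2011 and 2013 all 10 were called as higher in RN-L, where 7.07% of all groupings were, with log2 fold-changes of 1.74 to 3.54 and a median of 2.44, where the median of all groupings was -0.038. The 2.21 of Lkb1 lay below that median and the 3.17 of MAP3K9 above it.

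Outside RN, edgeR called 1 grouping by size in each tissue, so nothing is read from the list's counts there. In ES, where 0.00331% of groupings were called, 0 of the 10 were called by edgeR or by DESeq2 and 0 had an unadjusted p under 0.05, with a median log2 fold-change of 0.34, against 0.064 over all groupings. In ALM 7 of the 10 passed the filter on low counts, with log2 fold-changes of -1.14 to 0.090, and 0 were called by edgeR, with 0 at an unadjusted p under 0.05, where 1 of 24496 groupings was called. The largest value in ES was that of CPT1C, at 1.07 (SE 0.51, edgeR adjusted p = 0.658).

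Between RN and ES of Large animals, 6 of the 10 were called as higher in RN, as were 10.7% of all groupings tested: Rb1cc, PtenB, Mip1, Slc38a9, CPT1A and CPT1C. The median of the 10 was 2.10, against -0.15 over all groupings. PtenB was at 3.71, 8.74 and 5.46 CPM in RN-L, against 0.322, 1.24 and 0.976 CPM in ES-L, a log2 fold-change of 2.99 (SE 0.61, edgeR adjusted p = 0.00216). CPT1C was at 57.7, 41.5 and 35.1 CPM in RN-L, against 2.90, 10.3 and 6.83 CPM in ES-L, a log2 fold-change of 2.50 (SE 0.51, edgeR adjusted p = 0.00217). For both genes the RN-L and ES-L libraries did not overlap, and both carried RN-L values on which the study had picked them. The values that missed the threshold were 1.91 for Atg14, 1.22 for FASN, 0.87 for Atg4hb and 0.80 for Eif4e3. In Small animals, where 18.5% of groupings were called, 0 of the 10 were called by edgeR or DESeq2, with 1 at an unadjusted p under 0.05 (Eif4e3, log2 fold-change -1.68) and a median of -0.23.

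PtenB was also the only one of the 10 called for the difference of the size effects between RN and ES, where 1.43% of all groupings tested were called, at 4.08 on the log2 scale (SE 0.92, edgeR adjusted p = 0.0378). It was at 3.71, 8.74 and 5.46 CPM in RN-L, against 0.677, 0.686 and 0.437 CPM in RN-S. In ES it was at 0.322, 1.24 and 0.976 CPM in ES-L, against 1.34, 0.831 and 1.53 CPM in ES-S. The groups were apart in RN and overlapped in ES. The PtenB call was lost with sampling year as a replicate block (edgeR adjusted p = 0.0602), with size and year together as the block (0.0903) and unfiltered (0.0566). It was also lost without 1 of 9 libraries (edgeR adjusted p 0.0571 to 0.204): either RN-L or RN-S of 2011 or 2013, ES-L of 2013, any ES-S or ALM-S of 2011. DESeq2 called 3 of the 10, and 2205 of all 42996 groupings tested. The median difference of the list was 2.12, against -0.038 over all groupings, and the study's choice of the genes on their RN size effect favoured that sign.

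Around MAP3K9, 5 of 10 genes of MAPK signaling could be linked, with the same limit on RN. By mean level over the 18 libraries the first 4 were SRC, a tyrosine kinase, Trk, a neurotrophin receptor kinase, TAB2, an adaptor of the MAP3K TAK1 in mammals, and the receptor FGFR3. All 5 were called by size in RN, where 12.5% of groupings were. In ES 0 of the 3 tested were called by edgeR or DESeq2 (0 at an unadjusted p under 0.05), where 0.00331% of groupings were called. In the difference of the size effects 0 of 5 were called by edgeR, with 3 at an unadjusted p under 0.05, and 1 was called by DESeq2. Over all groupings edgeR called 1.43% there, and DESeq2 2205 of 42996. Between RN and ES, 2 of the 5 were called as higher in RN of Large animals (10.7% of all groupings), and 2 as higher and 1 as lower in RN of Small animals (18.5% of groupings in either direction). The median log2 fold-change of the list was 1.98 in Large and 0.16 in Small animals, against -0.15 and -0.072 over all groupings.

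The 2 receptors were called between tissues in both sizes. Trk was at 58.0, 52.9 and 52.5 CPM in RN-L, against 0.161, 2.66 and 0.675 CPM in ES-L, and at 5.61, 10.4 and 10.2 CPM in RN-S, against 0.925, 2.12 and 0.858 CPM in ES-S. The log2 fold-change of RN over ES was 5.42 (SE 0.74) in Large and 2.97 (SE 0.70) in Small animals, with edgeR adjusted p of 0.000105 and 0.0071. FGFR3 had 5.14 (SE 0.57) in Large and 3.25 (SE 0.55) in Small animals, with edgeR adjusted p of 1.59e-05 and 0.000696. Both receptors were thus above ES in Small animals too, where MAP3K9 was at -0.40.

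SRC took the other course. It was at 30.9, 32.3 and 30.5 CPM in RN-L, against 10.9, 28.8 and 21.3 CPM in ES-L, and at 4.93, 5.32 and 3.71 CPM in RN-S, against 14.9, 23.6 and 11.1 CPM in ES-S. RN was lower than ES in Small animals, by a log2 fold-change of -1.86 (SE 0.52, edgeR adjusted p = 0.0206), and not called in Large ones, at 0.62 (SE 0.48, edgeR adjusted p = 0.353). The call in Small animals was lost without RN-S of 2011 (-2.13), RN-S of 2013 (-1.63) or ES-S of 2011 (-1.51). Its libraries were apart in both sizes, with RN-L above ES-L and RN-S below ES-S, an arrangement that Lkb1 shared. The first held for 20.9% and the second for 24.8% of groupings with a mean of at least 1 CPM. The share with both was not counted, and the study's choice of both genes on their RN size effect favoured it. The 4th gene, TAB2, was at 27.1 to 31.3 CPM in RN-L and at 3.48 to 6.01 CPM in RN-S, and was not called between tissues.

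Of 14 other protein kinases 10 could be linked, and the first 4 by level were Pdk2 (pyruvate dehydrogenase kinase), SGK3, MuskL (a receptor tyrosine kinase) and Srpk2 (a kinase of splicing factors). All 10 were called by size in RN, for which the study chose them and where 12.5% of groupings were called. In ES 0 of 10 were called by edgeR or DESeq2 (0 at an unadjusted p under 0.05), where 0.00331% of groupings were. In Large animals 6 of 10 were called as higher in RN than in ES, where 10.7% of groupings were, with a median log2 fold-change of 2.03. In Small animals 0 were called by edgeR, with 1 at an unadjusted p under 0.05 and 1 called by DESeq2. There edgeR called 18.5% of all groupings, and DESeq2 called 8497 of 42996. Srpk2 was the only one called for the difference of the size effects, at 3.03 (SE 0.58, edgeR adjusted p = 0.0189), where 1.43% of all groupings were called. That call was lost with size and year together as a replicate block (edgeR adjusted p = 0.0599), and without RN-L or RN-S of 2011 or 2013 or ES-S of 2011 (0.0557 to 0.136). Srpk2 was at 8.14, 17.2 and 25.7 CPM in RN-L, against 4.16, 2.74 and 3.28 CPM in RN-S, so that, like MAP3K9, it had its lowest RN-L value in 2010. SGK3 (log2 fold-change 2.21, edgeR adjusted p = 0.0141) was called between RN and ES of Large animals, though not without RN-L of 2011 (1.99, 0.110) or of 2013 (2.39, 0.0567), and Pdk2 (1.66, 0.205) and MuskL (1.29, 0.291) were not.

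Over the 3 lists the 25 linked genes gave 14 calls in RN over ES of Large animals, 3 in Small animals and 2 in the difference of the size effects, where 26.7%, 18.5% and 1.43% of all groupings were called. Pools of the same year and size deviated together between RN and ES, and with year and size together as a replicate block the counts were 13, 3 and 0. With sampling year alone as the replicate block, the last count was 1. Of all 42996 groupings, the year and size block called 10307, 7316 and 469, and the year block called 436 in the difference.

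**Figure D5:**
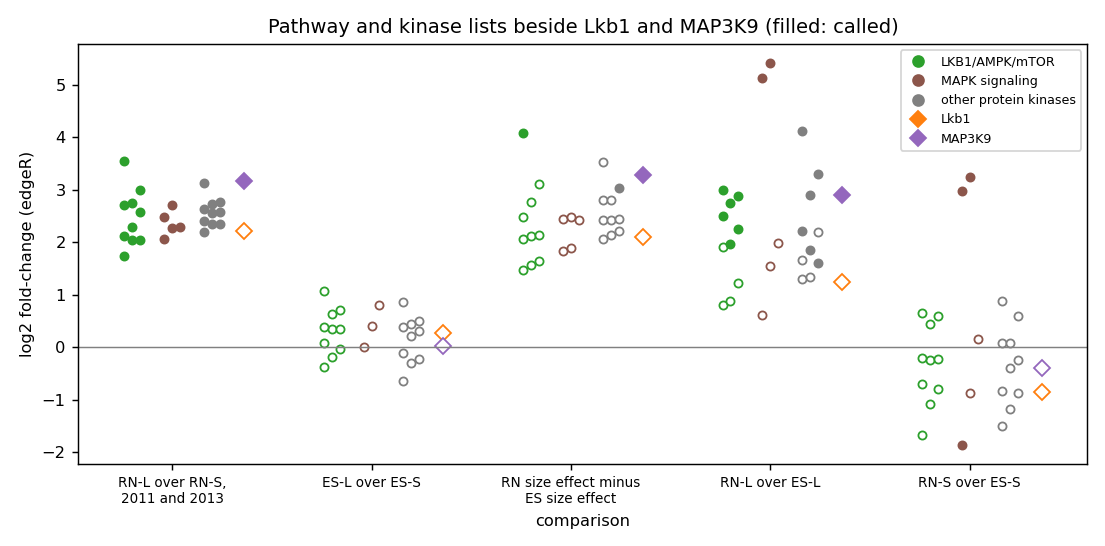
Log2 fold-changes (y axis, edgeR) of the linked genes of the 3 lists beside Lkb1 and MAP3K9, for 5 comparisons (x axis). Each circle is a gene, diamonds are Lkb1 and MAP3K9, and filled symbols are called. All 25 list genes are called in RN-L over RN-S, for which the study chose them, and none in ES-L over ES-S, where 0.00331% of all groupings were.

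The genes whose pattern was most like each kinase were looked up by Pearson r of log2 CPM over the 18 libraries, which share tissue, size and depth, among 13998 groupings with a mean of at least 5 CPM. For MAP3K9 the closest were Syde (r = 0.95) and the grouping TRINITY_DN11541_c0_g1 (r = 0.94). Syde averaged 131 CPM in RN-L, against 12.0 CPM in RN-S, 18.7 in ES-L, 18.5 in ES-S, 11.5 in ALM-L and 11.1 in ALM-S. It thus shared with MAP3K9 the single high group and the near equality of the other 5. Among linked genes Rab39, a small GTPase, was also close (r = 0.92), at 66.7 CPM in RN-L, against at most 9.61 CPM in the other groups.

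Lkb1 had no neighbour as close. The first 3 were TRINITY_DN2951_c0_g2 (r = 0.83), TRINITY_DN2819_c0_g1 (r = 0.82) and Rapgef2, an exchange factor for the small GTPase Rap (r = 0.82). Rapgef2 averaged 18.9 CPM in RN-L, against 4.28 CPM in RN-S, 6.47 in ES-L, 6.53 in ES-S, 8.21 in ALM-L and 12.3 in ALM-S, with the same lowest group as Lkb1. Ppactr2 (r = 0.80) and the unnamed SPU_005117 (r = 0.78) were the next linked genes. The linked genes were listed by the study for their difference by size in RN, so a high r in RN was favoured by that choice. Between Lkb1 and MAP3K9 themselves r was 0.40 over the 18 libraries.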

How the data were processed

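Per the labels and the study's methods, pooled RNA was turned into cDNA (SMARTer), sequenced as paired ends, trimmed (Trimmomatic 0.38), assembled with Trinity, aligned with Bowtie2 2.3.4 and counted with RSEM; the labels also name FastQC 0.10.1 and DESeq 1.20. The deposited values are expected counts per grouping, written as whole numbers by the authors. Nothing was left out: all 18 count columns were used, as deposited. No genome coordinates were used.

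Within each fit, low groupings were removed (filterByExpr), TMM factors computed and edgeR 4.0.16 (limma 3.58.1, R 4.3.3) quasi-likelihood tests run, with Benjamini-Hochberg adjustment and DESeq2 1.42.0 as an alternative. The SE is the log2 fold-change divided by the root of F. CPM used TMM over all 18 libraries, and log2 CPM a prior count of 2. Scripts were tested on simulated data. Summaries and plots used Python 3.11.15, pandas 2.3.3 and matplotlib 3.10.9. The members and lists were chosen with earlier results of these data known. List genes were linked by printed counts (a grouping, a pair, or, added after the table was seen, a grouping with at least 95% of them) or by the printed mean count (at least 20); 284 of 294 genes of known grouping were found again this way, and 5 of 204 genes not made of 1 grouping were given one. Named were all linked genes of the LKB1 list, the 4 most abundant of the other lists, and the 3 nearest groupings and linked genes by r, of which 1 for MAP3K9 is not reported here. Deviations from group means correlated between RN and ES pools of 1 year and size (r of 0.17 to 0.35). Between the sizes of 1 tissue and year r was -0.48 to 0.29. Replicates are pools of separate collections, and p-values measure the spread between pools. The study took the 3 tissues from the animals of each collection, and the main tests between tissues did not pair these pools. With size and year together as a replicate block, edgeR put the MAP3K9 difference of size effects at 3.83 (adjusted p = 0.0188). That of Lkb1 was 2.26 (0.183). RN-L over ES-L was then 3.33 for MAP3K9 (0.000213) and 1.24 for Lkb1 (0.0981). No 2 libraries were alike within sampling noise.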

Additional observations from a re-analysis of the deposited data

Results flagged for a closer look

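For MAP3K9 the effect of size differed between 2 tissues by a test of the difference itself: the effect in RN exceeded that in ES by 3.29 on the log2 scale (SE 0.65, edgeR adjusted p = 0.0216), with log2 fold-changes of 3.17 in RN and 0.024 in ES from the fits within each tissue. The study listed MAP3K9 for its size effect in RN, a choice that favoured the sign of this difference. In the years tested in RN, 2011 and 2013, the gene was higher in RN-L in both, and it was higher in ES-L in 1 of 3 years. Library series, marker levels of nerve, muscle and skeleton-forming cells, and size moved together in RN, and their part was not tested. Groups of 3 libraries are too small for a test of single outlying libraries.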

How the results depend on the processing

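Of the alternatives to the tested values of the 2 genes, 165 of 194 kept the direction and the side of the threshold. That count includes fits to all 6 RN or all 18 libraries, which hold the RN libraries whose counts chose the members. Lkb1 in RN of 2011 and 2013 passed the threshold with DESeq2 (2.19), unfiltered (2.24) and in the 16-library fit (2.27). It also passed with sampling year as a replicate block (2.11), and with DESeq2 and that block (2.12). Lkb1 in RN-L over ES-L passed with DESeq2 (1.31). The difference of its size effects passed with DESeq2 (2.20) and DESeq2 with the year block (2.21). With all 6 RN libraries the Lkb1 value in RN was 2.31, given with no test. With all 18 libraries its values, also with no test, were 1.19 in RN-L over ES-L and 2.23 for the difference of size effects.

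MAP3K9 in ES changed sign with upper quartile scaling (-0.024), no filter (-0.061), the year block (-0.076, with DESeq2 -0.063) and the 16-library fit (-0.056). Leaving out 1 library gave -0.50 to 0.24 there, 2.88 to 3.44 for MAP3K9 in RN, 3.03 to 3.81 for its difference of size effects, 1.20 to 2.63 for that of Lkb1, 0.34 to 1.78 for Lkb1 in RN-L over ES-L and 1.37 to 2.78 for Lkb1 in RN. In ALM it gave -0.60 to 0.13 for Lkb1 and -0.48 to 0.16 for MAP3K9. List genes called in the difference of size effects numbered 8 with DESeq2, 1 with the year block and 0 with the size and year block, against 2. Of all 42996 groupings tested, these settings called 2205, 436 and 469, against 615. The cause of these changes was not tested.

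All groupings called by size in RN of 2011 and 2013 numbered 2511 with the year block, 1634 in the 16-library fit and 7486 with no filter, against 3893. In ES they numbered 372 with DESeq2, 1772 with no filter, 31 in the 16-library fit and 0 with the year block (1984 at an unadjusted p under 0.05), against 1. With edgeR the year block changed no other call of the 2 genes, and with DESeq2 it ended that of Lkb1 in RN-L over ES-L (adjusted p = 0.0695, against 0.0343 without it). Large and Small animals of 1 year came from the same summer's collection at 1 site. Deviations of their pools from group means correlated at -0.08 to 0.04 in RN, -0.15 to 0.29 in ES and -0.48 to 0.025 in ALM. Counts of 16 to 58 reads for MAP3K9 outside RN-L limit how small a change could be seen, and DESeq2 with the year block and the size and year block were added after seeing the data.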
